A study of Saccharomyces cerevisiae with 8 samples.

Results

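Newly made RNA of budding yeast was compared between cells that received a kinase inhibitor and then a heat shock and cells that grew undisturbed with solvent. The comparison took the 2 libraries of heat shock with 1-NA-PP1 and the 2 libraries of steady state growth with DMSO, 4 of the 8 libraries in the series, and covered all 4928 annotated transcripts of the count table, of which 4901 passed the filter on low counts. All cells were Saccharomyces cerevisiae of mating type Mat alpha, with the markers ura3Δ0, trp1Δ63, met15Δ0, lys2Δ0, leu2Δ0 and his3Δ200 and an ade2::hisG disruption. The chromosomal kinase gene was removed in every group (srb10Δ::KanMX), and the kinase came from the centromeric TRP1 plasmid pSH599, which carries the srb10as-1 allele (Y236G), so the untreated cells also lived on the mutant enzyme. Cultures went from an OD600 of 0.1 to 0.8 at 30 °C in YPD-Trp. The treated group had 6 µM 1-NA-PP1 for 12 minutes followed by 12 minutes at 37 °C, and the untreated group had an equal volume of DMSO and stayed at the growth temperature. RNA was labelled in both groups with 5 mM 4-thiouridine (4tU), a uridine analogue that marks transcripts made during the labelling, for 5 minutes. The labels call the 2 samples of each group replicates without saying whether they came from separate cultures. The p-values and SE rest on the spread between samples of a group, which may be technical. This spread was pooled over all 8 libraries, so it includes the groups outside the comparison.

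Srb10, also called Cdk8 or Ssn3, is the kinase of the Mediator complex, which links transcription factors to RNA polymerase II, and it phosphorylates several activators of stress and nutrient genes. The srb10as-1 allele has a widened pocket that lets the bulky inhibitor 1-NA-PP1 bind. In yeast, heat shock activates Hsf1, which drives chaperone genes through heat shock elements, and Msn2 and Msn4, which drive general stress genes through the stress response element, while genes for ribosomes and for cell cycle progress are turned down.

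Because the 2 groups differ in both temperature and inhibitor, the comparison measures the joint effect, and neither agent can be told apart within it. The groups also differ in depth, with 64682858 and 60372371 counts in the untreated libraries and 17137998 and 17413120 counts in the treated ones. The auxotrophic markers followed the labels where the table held them: ADE2, LEU2, MET17 (the gene of met15) and URA3 had a count of 0 in all 8 libraries. The kinase gene SSN3, read from the plasmid, stood at 2439.6 and 2436 CPM (counts scaled to library size) in untreated and 2623 and 2692 CPM in treated cells, a log2 change of 0.12 (SE 0.09), or -0.75 with the authors' deposited factors, with an adjusted p of 0.266 by edgeR's quasi-likelihood test. Its level was therefore not detectably different, and as the inhibitor acts on the protein, this level does not check the inhibition. In RNA from whole cultures, fewer cells in a state and less RNA per cell cannot be told apart, which bears on every cell cycle result here.

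Most transcripts differed between the groups. Of 4901 tested, 3049 passed an adjusted p of 0.05 (62.2%), with 1493 raised (30.5%) and 1556 lowered (31.7%). A rise of at least 2-fold was called for 293 transcripts (5.98%), and a fall of at least 2-fold for 293 (5.98%). The log2 change ran from -5.02 to 5.19, with a median of -0.02 and quartiles of -0.41 and 0.35. These directions are relative to the bulk of transcripts, because the TMM scaling used here assumes that most transcripts keep their level. The authors deposited normalization factors in separate sets, which were joined here over 1-NA-PP1 steady state replicate 1, a library that both sets hold. The joined sets lack the DMSO heat shock libraries, so the fit with these factors left them out and tested 4907 transcripts. Calls lost in that fit can thus come from its other libraries and spread as well as from the scaling, which was not tested. With these factors, the median over all transcripts moved to -0.88. The split of calls changed from 1493 raised and 1556 lowered (49.0% raised) to 90 raised and 2156 lowered (4.01% raised). Of the named genes, 25 changed sign with the deposited factors and 29 kept their sign but lost their call. The latter include the rises of TSL1, NTH2, NTH1, PRC1, UBI4, RPN2, MET6, FRE2, HSP12 and HSP150 described below, whose log2 changes became 0.0046 (HSP150) to 0.81 (HSP12) with adjusted p from 0.0944 to 0.993 by edgeR's quasi-likelihood test. Each value below is thus a change relative to the typical transcript, and for gene groups with a positive median the value under the deposited factors is given in the same sentence.

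**Figure D1:**
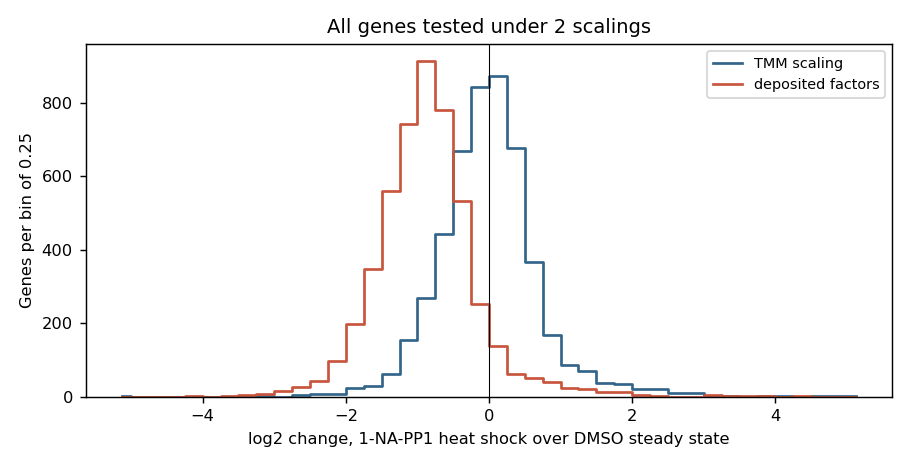
Number of transcripts (vertical axis, in bins of 0.25) by log2 change of 1-NA-PP1 heat shock over DMSO steady state (horizontal axis), for TMM scaling and for the authors' deposited factors. The median of the TMM distribution lies at -0.02 and that of the deposited factors at -0.88, so the same data are centred on no change or mostly below it.

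The upstream sequences of 4 genes are shown, 3 because they hold motif letters common in their gene group and that of GRE1 because it holds none of them. Each is the 300 bases just before the authors' transcript start, read 5′ to 3′ on the gene's strand from the R64 (sacCer3) genome, with capitals marking any match on either strand to the stress response element AGGGG, the PAC element GATGAG of ribosome assembly genes, or heat shock elements in the orders GAANNTTC and TTCNNGAA. HSP26 (chrII:381656-381955, plus strand), CUR1 (chrXVI:842895-843194, plus strand) and NSR1 (chrVII:807701-808000, minus strand) are the members of the general stress, Hsf1 chaperone and ribosome biogenesis lists with the largest absolute change among those holding their list's motif, and were chosen after their values were seen. GRE1 (chrXVI:129252-129551, minus strand) is the general stress gene with the largest rise.
HSP26: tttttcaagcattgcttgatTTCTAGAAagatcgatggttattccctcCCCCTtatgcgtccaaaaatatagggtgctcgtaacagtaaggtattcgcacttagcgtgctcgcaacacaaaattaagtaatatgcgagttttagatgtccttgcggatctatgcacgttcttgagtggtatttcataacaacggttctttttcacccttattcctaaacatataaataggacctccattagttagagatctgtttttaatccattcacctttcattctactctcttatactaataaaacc
GRE1: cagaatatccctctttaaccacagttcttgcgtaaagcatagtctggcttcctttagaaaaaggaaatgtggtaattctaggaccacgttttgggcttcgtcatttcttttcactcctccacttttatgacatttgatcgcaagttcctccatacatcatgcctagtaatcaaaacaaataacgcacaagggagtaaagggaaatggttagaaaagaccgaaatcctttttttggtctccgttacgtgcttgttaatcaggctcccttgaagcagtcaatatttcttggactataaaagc
CUR1: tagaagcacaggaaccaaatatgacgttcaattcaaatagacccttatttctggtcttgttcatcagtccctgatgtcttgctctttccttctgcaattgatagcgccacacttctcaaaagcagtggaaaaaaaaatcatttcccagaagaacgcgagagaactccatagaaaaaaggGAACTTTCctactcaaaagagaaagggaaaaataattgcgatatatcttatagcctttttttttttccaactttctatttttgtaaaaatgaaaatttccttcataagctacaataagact
NSR1: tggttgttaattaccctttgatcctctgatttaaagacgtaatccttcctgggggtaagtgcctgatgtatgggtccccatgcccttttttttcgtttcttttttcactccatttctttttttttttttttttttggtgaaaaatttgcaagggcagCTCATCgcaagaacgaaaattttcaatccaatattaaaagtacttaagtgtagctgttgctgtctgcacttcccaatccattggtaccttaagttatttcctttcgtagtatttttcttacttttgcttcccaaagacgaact
The HSP26 window held 1 stress response element and 1 heat shock element of the order TTCNNGAA, the CUR1 window 1 of the order GAANNTTC and the NSR1 window 1 PAC element. None of these letters was found in the GRE1 window, which says nothing about the factors that act there.

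The steepest rises were mostly stress and carbon metabolism genes. Many were low in untreated cells, but that level is the denominator of the change by which they were chosen. A gene low there could also meet the level condition through its treated libraries, so the low level is no result. PDC6, a minor isoform of pyruvate decarboxylase (chrVII:651193-653013, minus strand), had 0.941 and 1.20 CPM in the untreated libraries and 33.2 and 44.9 CPM in the treated ones. Its log2 change was 5.19 (SE 0.21). GRE1, which encodes a hydrophilin, a very hydrophilic protein made under stress (chrXVI:128404-129251, minus strand), had 4.14 and 3.85 CPM untreated and 91.6 and 137 CPM treated, a log2 change of 4.84 (SE 0.29). In both genes every treated library lay far above every untreated one, and the groups did not overlap in 88.4% of all tested transcripts. YDL218W, a gene of unknown function (chrIV:66148-67683, plus strand), had 11.4 and 11.1 CPM against 300.2 and 323 CPM, a log2 change of 4.79 (SE 0.09), and its libraries lay close together within each group. HSP26, the small heat shock protein that binds unfolding proteins (chrII:381956-382838, plus strand), had 36.1 and 27.1 CPM against 435 and 600.4 CPM. Its log2 change of 4.03 (SE 0.30) came with a wider spread in both groups than that of YDL218W.

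Further large rises fell in several roles. PAI3, an inhibitor of the vacuolar proteinase A, had 6.15 and 5.71 CPM against 123 and 145 CPM, a log2 change of 4.50 (SE 0.33). SPS100, a protein of spore wall maturation, had 2.16 and 1.97 CPM against 35.9 and 38.8 CPM, a log2 change of 4.18 (SE 0.18). Both peroxide-splitting catalases rose. The peroxisomal catalase CTA1 had 10.4 and 10.7 CPM against 102 and 109 CPM, a log2 change of 3.33 (SE 0.11). The cytosolic catalase CTT1 had 161 and 134 CPM against 812 and 1104 CPM, a log2 change of 2.70 (SE 0.24). Of the 24 oxidative stress genes tested, among them CTA1, 7 were raised (29.2%) and 8 lowered (33.3%), near the 30.5% and 31.7% of all transcripts. Their median of 0.03 became -0.83 with the deposited factors. The stress kinase gene RCK1 had 44.2 and 47.4 CPM against 382 and 332 CPM, a log2 change of 2.96 (SE 0.09). PUT1, the proline oxidase of the mitochondria, had 15.4 and 14.7 CPM against 103 and 105 CPM, a log2 change of 2.78 (SE 0.11). DSE4, a glucanase that helps a daughter cell part from its mother, differed from these in its high level, at 785 and 668 CPM untreated and 4881 and 4992 CPM treated, with a log2 change of 2.76 (SE 0.10). NDE2, an NADH dehydrogenase on the outer face of the inner mitochondrial membrane, rose by 2.72 (SE 0.25) on the log2 scale. GND2, SDH9 and POT1, isoenzymes or enzymes of the pentose phosphate pathway, the succinate dehydrogenase step and peroxisomal fatty acid breakdown, rose by 3.94, 3.14 and 2.81, but each overlaps a feature on the opposite strand and the strand setting of the counting is not given in the sources used here. Among these 15 largest rises, the groups did not overlap in any gene, as the choice of genes required. The same held for 4333 of the 4901 tested transcripts (88.4%). The highest adjusted p of the 15 was 7.61e-05 by edgeR's quasi-likelihood test, for POT1.

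The steepest falls included single genes of glycogen, pyrimidine and zinc metabolism and several cell cycle genes. GSY1, a glycogen synthase (chrVI:174126-176480, minus strand), had 135 and 112 CPM in untreated and 12.1 and 14.2 CPM in treated cells, a log2 change of -3.23 (SE 0.27). URA1, the dihydroorotate dehydrogenase of pyrimidine synthesis (chrXI:25173-26448, plus strand), had 507 and 543 CPM against 64.0 and 51.6 CPM, a log2 change of -3.18 (SE 0.25). ZRT1, the high-affinity zinc importer (chrVII:20933-22204, plus strand), had 463 and 327 CPM against 42.6 and 47.4 CPM, a log2 change of -3.13 (SE 0.30). All 3 were well expressed before treatment, so their treated levels still rest on many counts. Of the 9 glycogen genes tested, GSY1 was the 1 that fell (11.1%, against 31.7% of all transcripts) and 3 rose (33.3%, against 30.5%). The list median of 0.07 became -0.78 with the deposited factors. Among the 3 that rose was the paralogous synthase GSY2 at 0.88 (SE 0.14), which overlaps an opposite-strand feature. ZPS1, another zinc-responsive gene, was low and its untreated libraries stood far apart at 37.1 and 17.9 CPM, against 3.72 and 4.91 CPM, a log2 change of -2.67 (SE 0.44). CLB6, a cyclin of S phase, had 46.5 and 41.0 CPM against 7.80 and 6.73 CPM, a log2 change of -2.59 (SE 0.19). MCD1, the subunit that closes the cohesin ring, had 353 and 327 CPM against 65.9 and 68.1 CPM, a log2 change of -2.34 (SE 0.10). These cell cycle genes were joined by ACM1, an inhibitor of the anaphase-promoting complex, at -2.31 (SE 0.11), and NRM1, a corepressor of G1 transcription, at -2.27 (SE 0.14). RNH201, the catalytic subunit of ribonuclease H2, fell by 2.34 on the log2 scale. The alpha factor gene MF(ALPHA)1, which overlaps a feature on the opposite strand, had 2681 and 3082 CPM against 547 and 460.5 CPM, a log2 change of -2.52 (SE 0.11). ARO5, INA1, FEX1, AIM20 and RIB4 complete the 15, with log2 changes of -2.74, -2.70, -2.55, -2.46 and -2.31. INA1, AIM20 and RIB4 overlap an opposite-strand feature, and FEX1 has a near-identical copy with which the counting could have split reads.

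**Figure D2:**
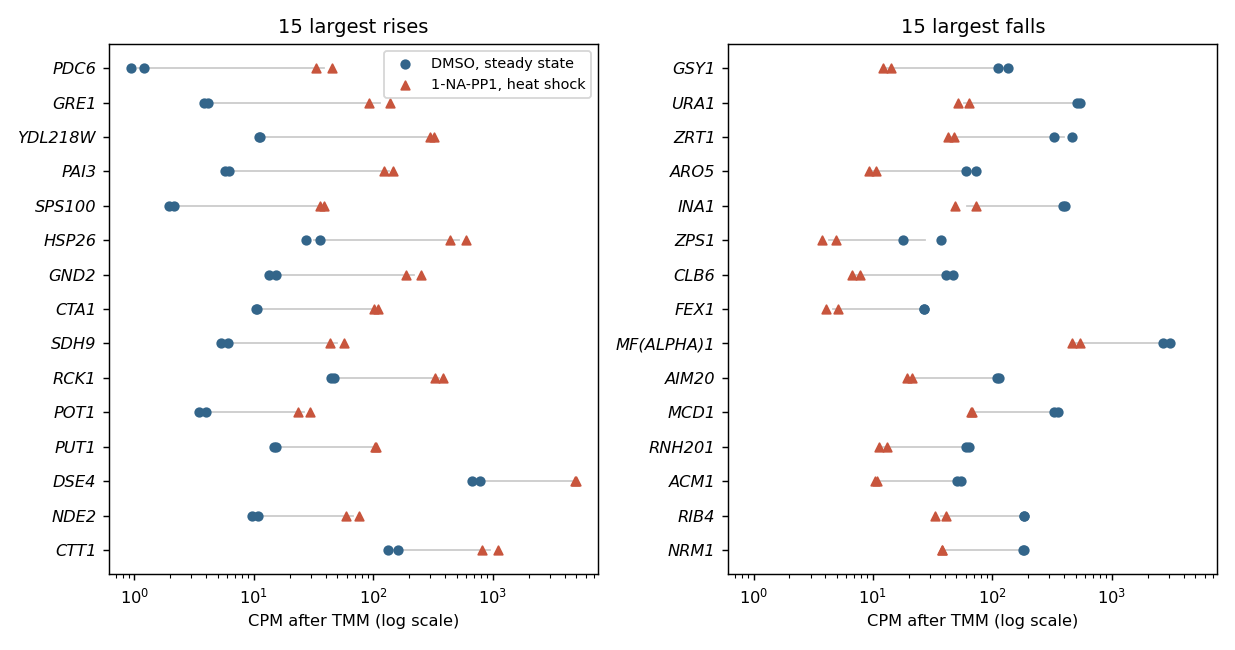
Level of the 15 transcripts with the largest rises (left) and the largest falls (right) in each library, in CPM after TMM scaling on a log axis; circles are the 2 DMSO steady state libraries, triangles the 2 1-NA-PP1 heat shock libraries, and grey lines join the group means. PDC6 goes from near 1 CPM to 33.2 and 44.9 CPM and GSY1 from 135 and 112 CPM to 12.1 and 14.2 CPM, while ZPS1 shows the widest gap between untreated libraries.

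Chaperone genes under Hsf1 moved in both directions. Of 24 tested, 8 were raised, 6 were lowered and 10 were not called, with a median log2 change of 0.11 that became -0.76 with the deposited factors, and 1 of the 24 rose at least 2-fold. That 1 was SSA3, an Hsp70 chaperone made mainly under stress, at 162 and 153 CPM untreated and 866 and 1039 CPM treated, a log2 change of 2.60 (SE 0.11). SSA4, another stress Hsp70, rose by 0.83 (SE 0.14), from 948 and 881 CPM to 1514 and 1737 CPM, but its change was -0.053 with the deposited factors. CUR1, which sorts misfolded proteins, fell from 375 and 402 CPM to 215 and 212 CPM, a log2 change of -0.86 (SE 0.07). HSP104, the disaggregase that pulls proteins out of aggregates, was already high at 3791 and 3469 CPM untreated and stood at 4043 and 4126 CPM treated, a log2 change of 0.17 (SE 0.11) that did not pass edgeR's test over all groups (adjusted p = 0.206). It did pass with limma voom (adjusted p = 0.0478) and with edgeR on only the 4 libraries compared (adjusted p = 0.0355), and it was -0.70 with the deposited factors. The share of called chaperones (14 of 24) was close to the 62.2% of all transcripts.

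General stress genes rose nearly throughout. Of 23 tested, 20 were raised, 15 of them at least 2-fold, 1 was lowered and 2 were not called, against 30.5% of all transcripts raised, and their median of 1.16 stayed positive at 0.27 with the deposited factors. Beside GRE1, HSP26 and CTT1, the membrane-protecting HSP12 rose from 214 and 202 CPM to 571 and 792 CPM, a log2 change of 1.71 (SE 0.25). The gene of the chaperone regulator, HSF1, was raised relative to the bulk by 0.67 (SE 0.09). Those of the general stress regulators, MSN4 and MSN2, were raised by 0.80 (SE 0.12) and 0.38 (SE 0.07). All 3 turned negative with the deposited factors, at -0.19, -0.07 and -0.48. Among the 20 stress transcription factors tested, 9 were raised, 3 were lowered and 8 were not called, with a median of 0.17 that became -0.69 with the deposited factors. The glucose repressor MIG2 was the lowest of them, at 188 and 199 CPM against 45.1 and 46.5 CPM, a log2 change of -2.08 (SE 0.12), and CRF1, a corepressor of ribosomal protein genes, the highest, at 1.86 (SE 0.14).

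Trehalose and protein turnover genes rose as well, against 30.5% of all transcripts raised and 5.98% raised at least 2-fold. Trehalose is a sugar that protects proteins in heat, and 5 of its 6 tested genes were raised, 3 at least 2-fold, with a median of 1.00 and 0.11 with the deposited factors. The synthase subunit TSL1 went from 2002 and 1597 CPM to 5020.3 and 5366 CPM, a log2 change of 1.53 (SE 0.19), and the trehalases NTH2 and NTH1, which break the sugar down, rose by 1.37 and 1.04. Of 23 ubiquitin and autophagy genes, 17 were raised and none was lowered, and of 32 proteasome genes, 23 were raised and none was lowered, with medians of 0.43 and 0.37 that became -0.44 and -0.50 with the deposited factors. The polyubiquitin gene UBI4 went from 191 and 186 CPM to 427 and 425 CPM, a log2 change of 1.18 (SE 0.09). RPN2, a scaffold of the proteasome's regulatory particle, went from 661 and 658 CPM to 1276 and 1326 CPM, a log2 change of 0.98 (SE 0.09). PRC1, the vacuolar carboxypeptidase Y, rose by 1.29 (SE 0.08).

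Genes that glucose represses were raised against the background too. Of all transcripts, 30.5% were raised, 5.98% at least 2-fold, and 31.7% were lowered. Of 23 tested, 15 were raised, 12 at least 2-fold, and 3 were lowered, with a median of 1.22 and 0.35 with the deposited factors. POX1, the first enzyme of fatty acid breakdown, went from 6.24 and 5.62 CPM to 25.8 and 26.9 CPM, a log2 change of 2.15 (SE 0.17), and ACS1, an acetyl-CoA synthetase that overlaps an opposite-strand feature, rose by 2.07 (SE 0.11). Glycolytic genes gave 11 raised and 1 lowered of 17, with a median of 0.49 that became -0.38 with the deposited factors. The lowered one was hexokinase HXK2, which is also a signal of glucose repression, at 427 and 433 CPM untreated and 113 and 109 CPM treated, a log2 change of -1.95 (SE 0.14). TDH1, a glyceraldehyde-3-phosphate dehydrogenase with close paralogs that could share reads, rose by 1.85 (SE 0.17). Of 10 hexose transport genes, 5 fell and 2 rose, with a median of -0.64. MTH1, a repressor of hexose transporter genes, had 346 and 342 CPM against 72.2 and 79.6 CPM, a log2 change of -2.18 (SE 0.10). The transporters HXT4 and HXT3, members of a multigene family whose counts are uncertain, fell by 1.76 and 1.50 on the log2 scale.

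Most iron genes rose (77.3%, against 30.5% of all transcripts). Of 22 iron genes tested, 17 were raised, 10 at least 2-fold, and 2 were lowered, with a median of 0.95 and 0.09 with the deposited factors. ARN1, a transporter of iron bound to siderophores, went from 33.7 and 34.9 CPM to 139.6 and 115 CPM, a log2 change of 1.89 (SE 0.12). FRE2, a reductase that frees iron at the cell surface, rose by 1.55 (SE 0.14), and HMX1, a heme oxygenase that overlaps an opposite-strand feature, by 2.26 (SE 0.17). Of the 20 phosphate and zinc genes, 4 rose and 6 fell, with a median of -0.21, and these shares of 20% and 30% are close to or below the 30.5% and 31.7% of all transcripts. ZAP1, the activator of zinc uptake, had 494 and 375 CPM against 201 and 197 CPM, a log2 change of -1.12 (SE 0.18), beside the falls of ZRT1 and ZPS1.

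The genes of ribosomes and their assembly fell, and of these lists the ribosomal proteins fell most uniformly. Of 135 ribosomal protein genes tested, 132 were lowered, 75 of them at least 2-fold, none was raised, and 3 were not called, against 31.7% of all transcripts lowered, with a median of -1.02 and -1.89 with the deposited factors. RPL30, a protein of the large subunit with no paralog, went from 85.6 and 91.5 CPM to 27.2 and 24.1 CPM, a log2 change of -1.79 (SE 0.12). Many ribosomal proteins have near-identical gene pairs, so values such as those of RPL36B (-1.94 (SE 0.26)) and RPL9A (-1.86 (SE 0.34)) are uncertain where the counting could split reads. Of 81 ribosome biogenesis genes, 42 were lowered, 9 at least 2-fold, and none was raised, with a median of -0.52. NHP2, a core protein of the particles that modify ribosomal RNA, went from 52.7 and 55.1 CPM to 26.4 and 20.8 CPM, a log2 change of -1.19 (SE 0.16). NSR1, a nucleolar protein of ribosomal RNA processing, had 149 and 153 CPM against 67.1 and 51.4 CPM, a log2 change of -1.35 (SE 0.35), whose adjusted p of 0.00979 became 0.073 without 1-NA-PP1 heat shock replicate 2. Among 31 RNA polymerase I and III genes, 18 fell and 3 rose, with a median of -0.42, and RPA12 of polymerase I fell from 53.9 and 56.8 CPM to 24.7 and 23.4 CPM, a log2 change of -1.20 (SE 0.16). Mitochondrial ribosomal proteins moved less, with 27 of 52 lowered, none of them at least 2-fold, and a median of -0.31.

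Lists of amino acid and nucleotide genes held members that rose and members that fell, beside 30.5% of all transcripts raised and 31.7% lowered. Of 51 amino acid synthesis genes, 26 fell and 8 rose, with a median of -0.36. The glutamate dehydrogenase GDH1 went from 90.4 and 93.8 CPM to 29.0 and 26.4 CPM, a log2 change of -1.73 (SE 0.15). BAT1 and ILV5, enzymes of branched-chain amino acids, fell by 1.53 and 1.44 on the log2 scale. Of 20 methionine and sulfate genes, 10 rose and 2 fell, with a median of 0.24 that became -0.63 with the deposited factors. The methionine synthase MET6 went from 1366 and 1459 CPM to 2767 and 2961 CPM, a log2 change of 1.02 (SE 0.10). Of 25 purine and pyrimidine genes, 11 rose and 9 fell, with a median of 0.001 that became -0.86 with the deposited factors. ADE17, an enzyme of the last steps of purine synthesis, went from 61.2 and 55.7 CPM to 285 and 265 CPM, a log2 change of 2.23 (SE 0.08), whereas URA1 of pyrimidine synthesis fell; purine and pyrimidine genes were not counted apart. Of 22 nutrient permeases, 12 rose and 1 fell, with a median of 0.35 that became -0.51 with the deposited factors. The peptide transporter PTR2 went from 137 and 131 CPM to 651 and 701 CPM, a log2 change of 2.34 (SE 0.07), and the proline permease PUT4 rose by 2.47 (SE 0.15).

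Histone genes and most genes of the G1, S, G2 and M phase lists fell, and the cell wall list moved both ways. The shares over all transcripts were 31.7% lowered and 30.5% raised, with 5.98% past 2-fold in each direction. All 10 histone genes were lowered, 8 at least 2-fold, with a median of -1.64. HHF1, a histone H4 gene whose twin HHF2 encodes the same protein, went from 372 and 383 CPM to 93.0 and 96.9 CPM, a log2 change of -1.99 (SE 0.09). Of 26 genes of G1 and S phase, 20 were lowered, 13 at least 2-fold, and 1 was raised, with a median of -1.01. Of 18 genes of G2 and M phase, 16 were lowered, 11 at least 2-fold, and none was raised, with a median of -1.02. SWI5, an activator of genes at the end of mitosis that overlaps an opposite-strand feature, went from 604 and 571 CPM to 189 and 175 CPM, a log2 change of -1.69 (SE 0.07). Of 7 genes tested in the Mcm helicase list, 4 fell, with a list median of -0.16. The call of MCM2 at -0.19 (SE 0.07) was marginal (adjusted p = 0.0474 by edgeR's quasi-likelihood test) and was lost with DESeq2, the replicate block, thinning, DESeq2's size factors, the stricter filter and without any 1 of the 4 libraries compared. The largest of these falls was MCM7, which went from 489 and 475 CPM to 245 and 231 CPM, a log2 change of -1.02 (SE 0.07). In the cell wall list, 20 of 32 were raised, 9 at least 2-fold, and 7 were lowered, with a median of 0.51 that became -0.36 with the deposited factors. Beside DSE4, the chitinase CTS1, which cuts the septum between mother and daughter, went from 851 and 779 CPM to 3421 and 3176 CPM, a log2 change of 2.02 (SE 0.10), and PST1, a wall protein made under wall stress, rose by 2.16 (SE 0.11). Both overlap an opposite-strand feature.

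**Figure D3:**
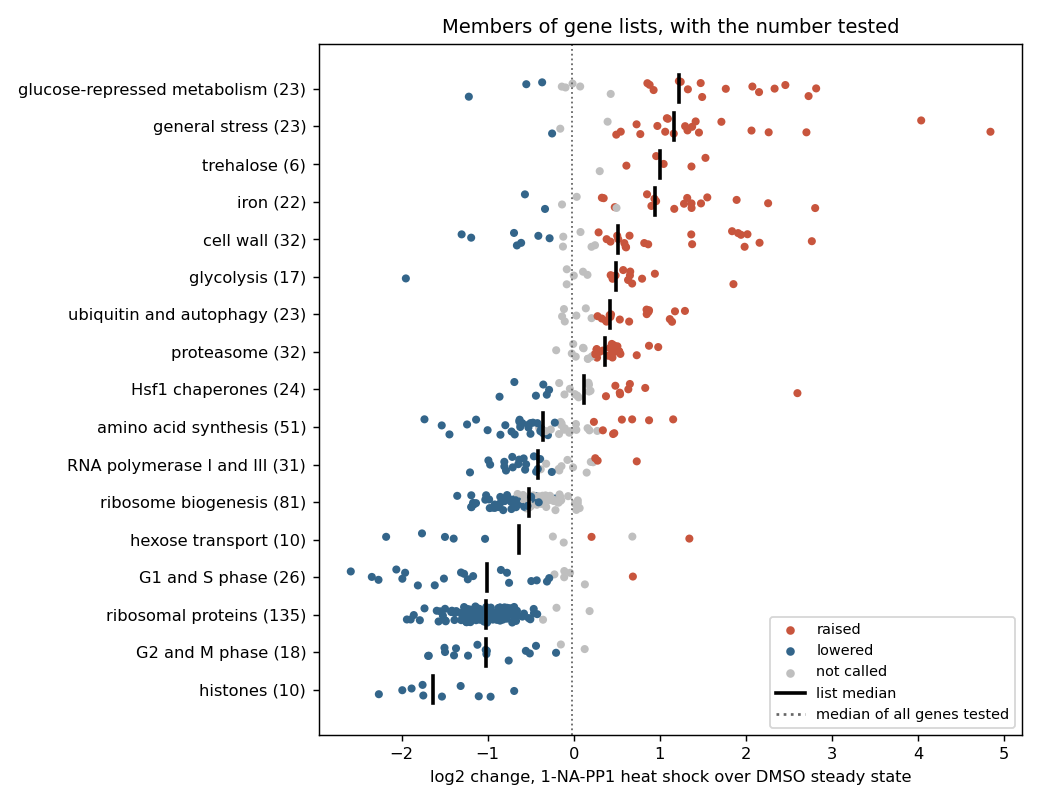
Log2 change of 1-NA-PP1 heat shock over DMSO steady state (horizontal axis) for each tested member of 17 gene lists (rows, number tested in brackets); red points were raised, blue lowered and grey not called, black bars are list medians and the dotted line is the median of all transcripts. Medians run from -1.64 for histones to 1.22 for glucose-repressed genes under TMM scaling, and glycolysis, the cell wall, the proteasome, ubiquitin and autophagy and the Hsf1 chaperones have negative medians with the deposited factors.

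The joint change is the sum of a heat step with DMSO and an inhibitor step under heat, and both steps come from the same fit and share libraries, so they are set side by side without a correlation. For the 293 transcripts raised at least 2-fold, the median log2 change was 1.48 for both agents, 1.33 for heat with DMSO and 0.18 for the inhibitor under heat. For the 293 lowered at least 2-fold, the medians were -1.23, -1.11 and -0.14. Over all 4901 transcripts, 2866 were called for heat with DMSO (58.5%) and 16 for the inhibitor under heat (0.326%). By edgeR's quasi-likelihood test 0 were called for the inhibitor at steady state, where 1608 had an unadjusted p under 0.05. All 15 of the largest rises were called for heat with DMSO, with log2 changes from 2.06 to 4.70, and 3 of the 15 for the inhibitor under heat, where values ran from -0.20 to 1.25. Those 3 were PDC6 at 1.25 (SE 0.18), YDL218W at 1.11 (SE 0.08) and RCK1 at 0.61 (SE 0.09). The inhibitor at steady state gave 0.68 (SE 0.23), 0.34 (SE 0.08) and 0.36 (SE 0.09) in the same genes, none of which was called. All 15 of the largest falls were called for heat with DMSO, from -3.56 to -1.70, and none for the inhibitor under heat, from -0.62 to 0.97.

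The heat and inhibitor steps had medians of opposite sign in some lists. In the Hsf1 chaperones the median was 0.37 for heat with DMSO and -0.35 for the inhibitor under heat, and the joint median of 0.11 lies between them. HSP104 had 6221 and 5097 CPM after heat shock with DMSO, above both its untreated 3791 and 3469 CPM and the 4043 and 4126 CPM of heat shock with inhibitor, with steps of 0.64 (SE 0.11) and -0.47 (SE 0.11). The inhibitor step of HSP104 was not called by edgeR's quasi-likelihood test, which called 16 of 4901 transcripts for the inhibitor under heat. In the ribosomal proteins both medians were negative, at -0.69 and -0.35. In the G1 and S phase list the heat median was -1.38 and the inhibitor median 0.23. These values share the heat shock libraries with DMSO, which enter the 2 steps with opposite sign.

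**Figure D4:**
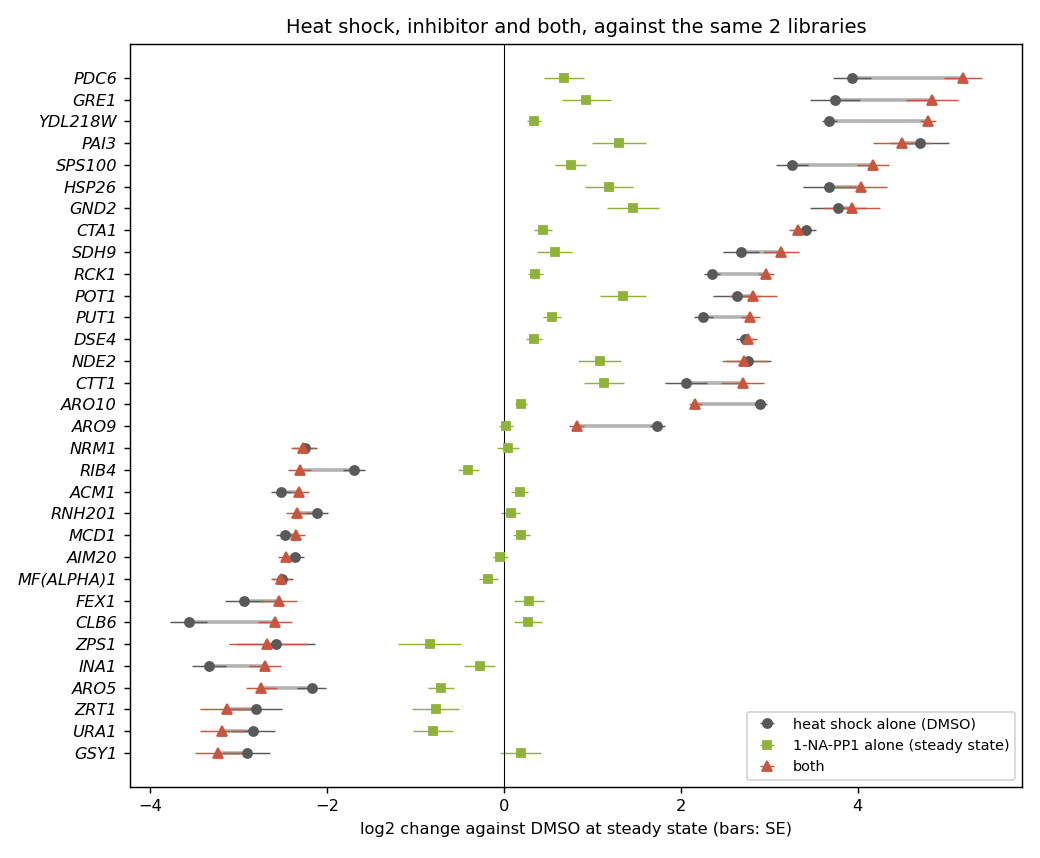
Log2 change against DMSO at steady state (horizontal axis, bars are SE) for heat shock alone, 1-NA-PP1 alone and both, in the 15 largest rises, the 15 largest falls, ARO10 and ARO9. The 15 rises reach 2.06 to 4.70 with heat alone and 2.70 to 5.19 with both, and ARO10 and ARO9 are higher with heat alone than with both.

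Whether the agents add up was tested as an interaction over all transcripts. By edgeR's quasi-likelihood test 661 of 4901 had an unadjusted p under 0.05 and 1 was called after adjustment (0.0204%), while DESeq2 called 24. The 1 was ARO10, the decarboxylase of aromatic amino acid breakdown (chrIV:1234113-1236253, plus strand). It had 42.3 and 42.9 CPM untreated, 49.3 and 48.2 CPM with inhibitor, 326 and 309 CPM with heat and 195 and 187 CPM with both. The joint log2 change of 2.16 (SE 0.07) was below the heat step of 2.90 (SE 0.07), and the departure from the sum was -0.93 (SE 0.10, adjusted p = 0.0474). ARO9, the transaminase of the same pathway, which overlaps an opposite-strand feature, had 61.3 and 57.2 CPM untreated, 197 and 197 CPM with heat and 99.7 and 109.6 CPM with both, and its departure of -0.94 (SE 0.11) did not pass (adjusted p = 0.0802). The call on ARO10 was lost without either heat shock library of either treatment and without either DMSO steady state library, with departures between -0.84 and -0.94 and adjusted p from 0.219 to 0.701. The count of departures rose to 848 without 1-NA-PP1 steady state replicate 1 and to 2 without replicate 2 of that group.

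Raised and lowered transcripts had different median lengths. The median transcript length was 1597 bases among those raised at least 2-fold, 997 bases among those lowered at least 2-fold and 1435 bases over all. In the quintile with the shortest transcripts (168 to 865 bases) 10.5% were lowered at least 2-fold, and in the quintile with the longest (2220 to 4982 bases) 2.04%. The median log2 change by quintile of length was -0.34, -0.19, 0.00, 0.08 and 0.24. In the quintile with the lowest level before treatment, 17.3% were raised at least 2-fold, against 1.94% to 3.88% in the other quintiles. That level is also the denominator of the change, and a transcript low in untreated cells could pass the count filter through its treated level, so this excess is a description and no sign of a relation with level.

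**Figure D5:**
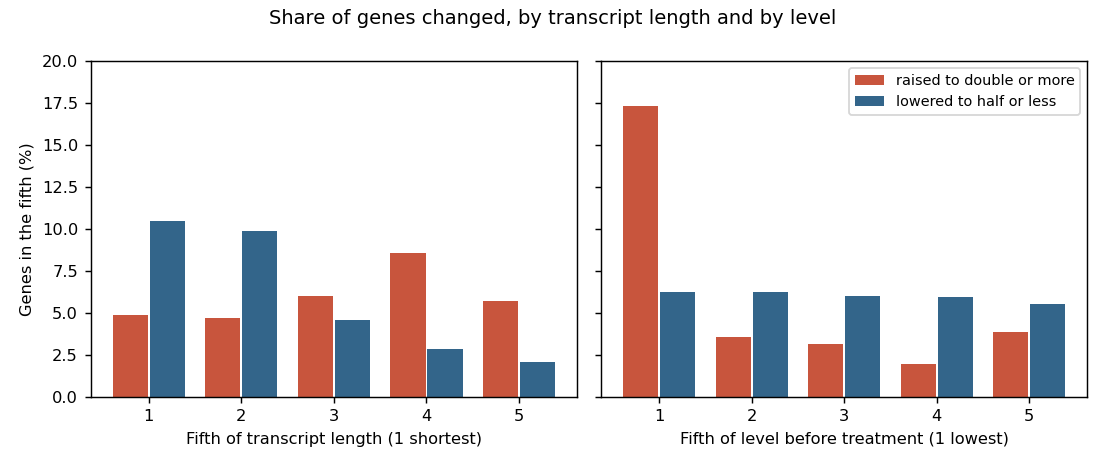
Share of transcripts (vertical axis, in percent) raised at least 2-fold (red) and lowered at least 2-fold (blue) in each quintile of transcript length (left) and of CPM per kilobase before treatment (right). Falls drop from 10.5% in the shortest quintile to 2.04% in the longest, and rises stand at 17.3% in the lowest quintile of level, which shares its untreated libraries with the change.

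Motif letters were counted in the 300 bases before each of the 4901 transcript starts, on both strands. AGGGG occurred in 20 of 23 general stress windows (87.0%), in 39.2% of windows of transcripts raised at least 2-fold, in 19.5% of those lowered at least 2-fold and in 23.0% of all. GATGAG occurred in 74 of 81 ribosome biogenesis windows (91.4%) and in 20.8% of all. GAANNTTC occurred in 15 of 24 chaperone windows and TTCNNGAA in 19 of 24, against 12.8% and 14.3% of all windows, and these orders can overlap in an array of heat shock elements. Among transcripts raised at least 2-fold the shares of these orders were 9.90% and 16.4%, and among those lowered at least 2-fold 19.1% and 15.7%. GAANNTTC was also found in 27.4% of ribosomal protein windows and TTCNNGAA in 13.3%. TGACTC, the element of the amino acid regulator Gcn4, occurred in 34 of 51 amino acid synthesis windows (66.7%) and in 8.45% of all.

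By level per length, the wall protein gene SED1 led both groups, with a mean of 4931 CPM per kilobase untreated (SD 21.7, n = 2) and 6625 treated (SD 187, n = 2). MF(ALPHA)1 held rank 2 in untreated cells at 3723 CPM per kilobase (SD 366) and rank 93 in treated cells at 651 (SD 78.7). The wall protein gene HSP150 moved from 3068 (SD 67.8) to 5585 (SD 247) CPM per kilobase and from rank 4 to rank 2. PMA1, the proton pump of the plasma membrane, moved from 2485 (SD 33.5) to 3906 (SD 164) CPM per kilobase and from rank 7 to rank 3. The log2 changes of SED1 and PMA1 were 0.43 and 0.65, but -0.45 and -0.21 with the deposited factors. HSP82, an Hsp90 chaperone with the near-identical paralog HSC82, moved from 2291 (SD 59.7) to 3326 (SD 88.1) CPM per kilobase. Its log2 change was 0.54, but -0.33 with the deposited factors. BTN2, a sorter of misfolded proteins, stood at 3025 (SD 74.7) and 3145 (SD 72.8), a difference that did not pass edgeR's quasi-likelihood test (adjusted p = 0.587). The rise of SED1 and that of HSP82 lost their calls without 1-NA-PP1 heat shock replicate 2 (adjusted p = 0.061 and 0.053 by edgeR's quasi-likelihood test).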

How the data were processed

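4tU-labelled RNA was sequenced from 8 libraries in 4 groups of 2. The deposited table holds raw counts per transcript, which the authors counted with HTSeq after cutadapt 1.9.1 and STAR 2.5.2b on sacCer3, per the submitters' processing notes, which give no order or settings. The authors' deposited normalization factors are a ratio per library, in 2 sets that share the 1-NA-PP1 steady state libraries. The sets were chained here over 1-NA-PP1 steady state replicate 1, so every value with the deposited factors rests on that link. The chained factors of the 2 treated libraries were 0.359 and 0.513, at depths of 17137998 and 17413120 counts. Those of the 1-NA-PP1 steady state libraries were 0.946 and 1.46, at depths of 65134744 and 61566972 counts. The factors thus also differed within groups of similar depth. How the deposited factors were made is not given in the sources used here. Depth ran from 14680275 to 65134744 counts per library.

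Counts were fitted with edgeR 4.0.16 in R 4.3.3 (filterByExpr, TMM, quasi-likelihood F test, 1 mean per group, 4 residual degrees of freedom), with Benjamini-Hochberg adjustment over 4901 transcripts and a threshold of 0.05. CPM are TMM-scaled. With 2 against 2, an exact two-sided permutation test cannot go below 0.333, so all p-values come from the fit. On simulated counts of 4896 genes, 100% of 100 genes changed by a log2 of 1 were called, and 0.298% of 4696 unchanged ones. Most of those genes were thus unchanged, whereas 62.2% of the measured transcripts were called. How often calls are false or missed when so many transcripts differ was not tested. Alternatives were DESeq2 1.42.0, limma 3.58.1 with voom, other scalings and filters, thinning and leaving out each library. Of the features, 1692 overlap another on the opposite strand.

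The gene lists were chosen with earlier results of these data known. Named genes are the 15 largest rises and falls among called transcripts that averaged 3 or more on the log2 CPM scale and whose groups did not overlap, the 3 largest called changes per list under the same conditions, genes called for the departure, the 5 highest levels per group, and a fixed set of stress, kinase and aromatic amino acid genes. Upstream sequences come from the R64 genome at the coordinates of the authors' annotation.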

Additional observations from a re-analysis of the deposited data

Results flagged for a closer look

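The interaction test asked of 4901 transcripts whether the response to heat differed between DMSO and 1-NA-PP1. By edgeR's quasi-likelihood test 661 had an unadjusted p under 0.05, and DESeq2 called 24. ARO9 (-0.94, SE 0.11) and YDL218W (0.77, SE 0.11) had departures of similar size that edgeR did not call. ARO10 was the only transcript called by edgeR's quasi-likelihood test, with a departure from additivity of -0.93 on the log2 scale (SE 0.10, adjusted p = 0.0474). Heat with DMSO gave 2.90 (SE 0.07) and heat with inhibitor 1.97. Over the other settings the adjusted p ran from 3.01e-13 with DESeq2 to 0.701 without 1-NA-PP1 heat shock replicate 1, and the departure was negative in all of them.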

How the results depend on the processing

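The direction of the calls depended on the scaling. With the deposited factors, and without the DMSO heat shock libraries, 90 transcripts were raised and 2156 lowered, 81 and 2040 of them at least 2-fold. Of the 3049 calls, 1645 were shared, all in the same direction. Tested against a log2 change of 1, 243 were called, 155 raised and 88 lowered. The count of departures from additivity was 1 in the reported fit, 24 with DESeq2, and 0 with DESeq2's size factors in edgeR, no filter, the replicate block, thinning and upper quartile factors. Leaving out 1 library at a time gave 2182 to 3309 calls, 1031 to 1604 raised, 1101 to 1791 lowered, 242 to 294 raised at least 2-fold, 257 to 353 lowered at least 2-fold and 0 to 848 departures, where the lone sample left is assumed to vary like the other groups. The replicate block gave 2948 calls, and a fit of only the 4 libraries compared gave 3675. Same-numbered samples of the compared groups correlated at -0.08 in their deviations. Those of other pairs of groups ran from -0.37 to 0.40, the highest between the 2 inhibitor groups. With 2 samples per group, these values cannot show whether same-numbered samples share more than a number. With the deposited factors 29 named genes kept their sign and lost their call, and these 25 turned negative: SSA4 -0.053, UGP1 -0.30, RPN1 -0.00024, RPT2 -0.15, SSN8 -0.51, MET13 -0.089, CIT1 -0.052, ERG27 -0.29, ERG24 -0.29, SAC6 -0.15, SKI2 -0.16, SFB2 -0.29, SEC17 -0.37, VMA1 -0.40, REG1 -0.35, HSP104 -0.70, SSN3 -0.75, HSF1 -0.19, MSN2 -0.48, MSN4 -0.071, ARO9 -0.057, SED1 -0.45, PMA1 -0.21, HSP82 -0.33 and BTN2 -0.81. BTN2, not called, was also negative with no filter (-0.0036), and leaving out 1 library at a time moved it from -0.027 to 0.082. The cause of these turns was not tested beyond the shift of the median. The treated libraries are shallower than the untreated ones, and thinning all libraries to the shallowest gave 2982 calls.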

Other observations

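Mating genes moved both ways. Of 21 mating genes tested, 9 were raised (42.9%) and 6 lowered (28.6%), against 30.5% and 31.7% of all transcripts, with a median of 0.06 that became -0.80 with the deposited factors. STE2, the alpha factor receptor that Mat a cells carry, went from 9.83 and 10.9 CPM to 29.2 and 28.7 CPM, a log2 change of 1.48 (SE 0.12), although the labels give Mat alpha, and it overlaps an opposite-strand feature. AGA1, the anchor of agglutinin, went from 262 and 271 CPM to 788 and 624 CPM, a log2 change of 1.41 (SE 0.12). Of 9 meiosis and sporulation genes that passed the filter on low counts, out of 27 listed, 7 were raised and 1 was lowered, with a median of 1.11 and 0.24 with the deposited factors. IME1, the activator of entry into meiosis, went from 34.2 and 35.1 CPM to 75.9 and 73.3 CPM, a log2 change of 1.11 (SE 0.12). The calls of STE2, AGA1 and IME1 were lost with the deposited factors, at 0.61, 0.57 and 0.24.

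Nuclear pore, secretion and tRNA synthetase genes had medians near that of all transcripts, while Mediator subunits outside the kinase module had more falls than rises. Of 25 nuclear pore genes, 6 rose and 6 fell, and of 28 genes of secretion coats and SNAREs, 9 rose and 4 fell, with medians of 0.00 and 0.05 that became -0.86 and -0.82 with the deposited factors. Of 19 tRNA synthetase genes, 5 fell (26.3%, below the 31.7% of all transcripts) and none rose (against 30.5%), with a median of -0.08. Of 18 other Mediator subunits, 12 fell (66.7%, against 31.7% of all transcripts) and 2 rose, with a median of -0.35. SSN8, the cyclin of Srb10, had 103 and 103 CPM against 135 and 126 CPM, a log2 change of 0.35 (SE 0.09), and its call was lost without 1-NA-PP1 heat shock replicate 1 or DMSO steady state replicate 2 (adjusted p = 0.103 and 0.0542 by edgeR's quasi-likelihood test). The plasmid marker TRP1 rose from 71.2 and 69.9 CPM to 123 and 145 CPM, a log2 change of 0.92 (SE 0.14) that was 0.038 and not called with the deposited factors, while SSN3 on the same plasmid had 0.12. The genotype label has trp1Δ63, and which copy gave the TRP1 counts was not tested.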
